A study of Mus musculus with 44 samples.

Results

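Nlrp3, Il1b and Ptges are 3 of the 21883 protein-coding genes around which peaks of the transcription factors NF-kB and IRF3 were placed in mouse bone marrow-derived macrophages. The genes were chosen on the presence of peaks near them in these same deposited lists, so that presence is described here and not tested. Every peak within 100 kb of a gene's annotated span counted, and 12 of the 15489 peaks in all 8 lists met that rule. Macrophages are phagocytes of innate immunity, grown here from C57BL/6 marrow in 30 ng/ml M-CSF and 10% serum and used at day 8 to 10. They were wild type (WT) or Dnmt3a KO, lacking a de novo DNA methyltransferase, and were left untreated or given lipopolysaccharide (LPS), a bacterial cell wall component, at 10 ng/ml for 6 hours. ChIP-seq, which recovers the DNA bound by a protein, gave 1 merged peak list for each factor, genotype and treatment. The NF-kB lists merge 3 samples each. The IRF3 lists merge 3 samples for untreated WT, 2 for WT with LPS, 2 for untreated KO and 3 for KO with LPS. Neither the labels nor the processing notes state the Dnmt3a allele, any Cre driver, the NF-kB subunit or whether replicates came from separate animals. A peak list holds no expression values, so neither the deletion nor the cell type could be checked from it.

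Making interleukin-1 is a stepwise process. Toll-like receptor signalling through NF-kB raises transcription of Nlrp3, which encodes the sensor protein of an inflammasome, and of Il1b, which encodes the precursor of interleukin-1 beta. After a further stimulus the sensor assembles with an adaptor and a caspase, and the caspase cleaves the precursor to the secreted cytokine. Ptges encodes the inducible microsomal prostaglandin E synthase, which acts after the cyclooxygenases to make the prostaglandin of fever and inflammatory pain. IRF3 is the factor through which the same receptor signalling turns on type I interferon.

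NF-kB peaks lay near all 3 genes in KO macrophages with LPS and near Nlrp3 and Ptges in WT macrophages with LPS. The list of KO with LPS held 8 of the 12 peaks, that of WT with LPS held 3, that of untreated KO held 1 and that of untreated WT held 0. The 4 IRF3 lists held 0. The peaks with LPS were narrow, 121 to 345 bp wide, and lay 15 to 281 bp before a start site of Nlrp3, about 10 kb before Il1b and between 9910 and 26706 bp before the start site of Ptges. None of the 12 peaks had a list q-value under 0.05. The lowest was 0.0698, at Ptges in KO with LPS, and the highest was 0.912, at Il1b in the same list. Between 114 and 422 peaks of each list had a q-value under 0.05. The p- and q-values are the authors', and no source used here says whether they measure enrichment over input or agreement between replicates.

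**Figure D1:**
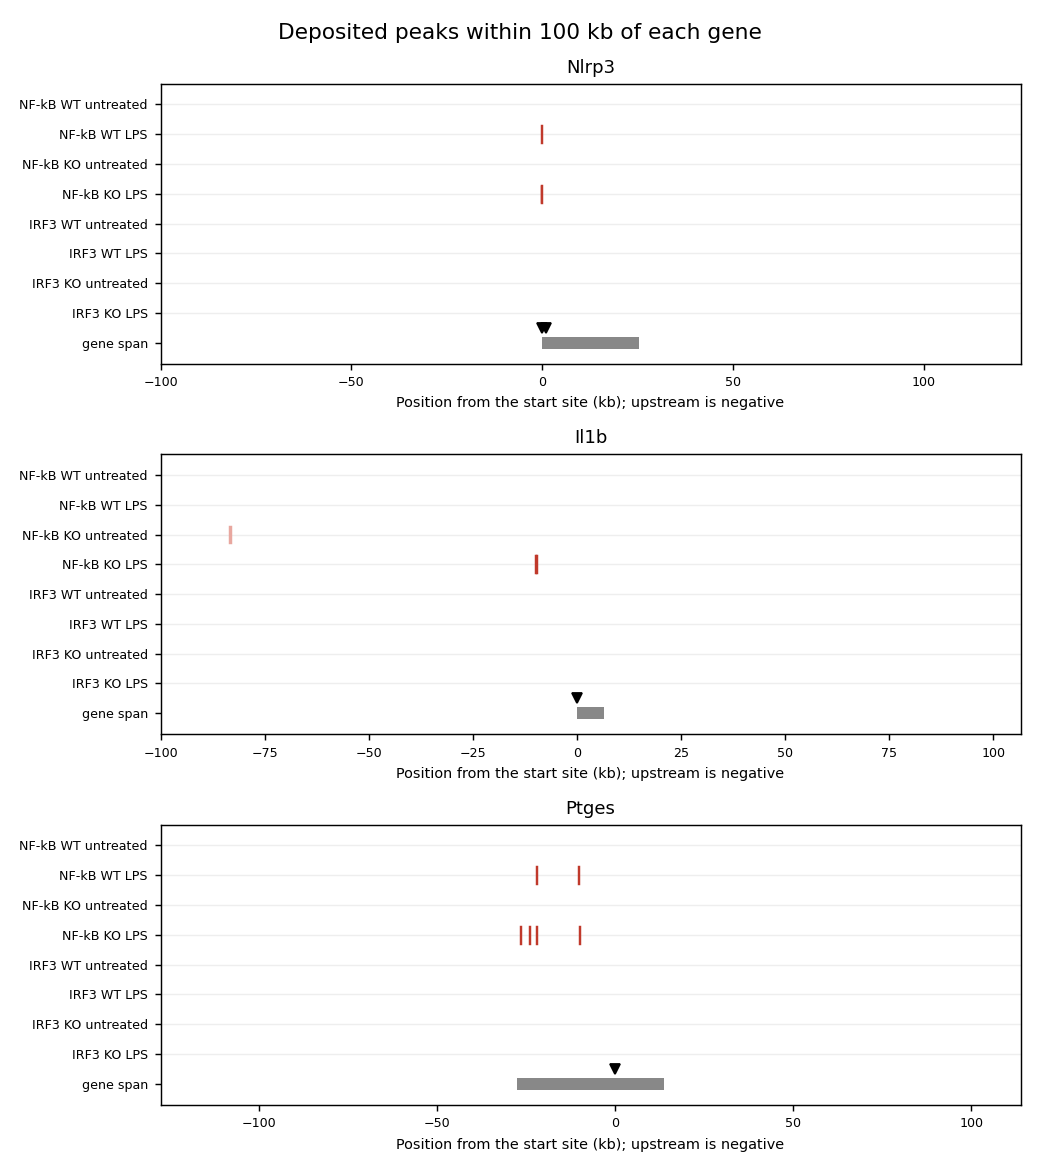
Deposited peaks of the 8 lists within 100 kb of Nlrp3, Il1b and Ptges, drawn by their position from the start site in kb, with upstream to the left. Each mark is 1 peak, drawn wider than scale where it would be too thin to see, the grey bar is the gene span and triangles are start sites. All but 1 of the 12 peaks lie in the NF-kB lists with LPS, and the other lies 83 kb from Il1b in untreated KO.

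At Nlrp3, the sensor gene, the peaks lay directly before the first of 2 annotated start sites. The gene spans chr11:59541569-59566955 in mm10, on the plus strand, and its start sites are 1117 bp apart. In WT with LPS the peak was chr11:59541406-59541554, 149 bp wide, and ended 15 bp before the first start site. In KO with LPS a peak of 142 bp, chr11:59541413-59541554, ended at the same base, and 100% of it lay within the WT peak. A second KO peak of 125 bp, chr11:59541288-59541412, abutted it on the upstream side and overlapped the WT peak by 7 bp. The occupied stretch was thus 149 bp in WT and 267 bp in KO, from a shared downstream edge. No peak lay at the second start site in any list.

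The 250 bases before the first Nlrp3 start site are printed because the WT peak and the inner KO peak lie wholly within them. Below them, for contrast, stand the same windows of Il1b and Ptges, which held no peak in any of the 8 lists. Sequences are from RefSeq (GRCm38.p6, the assembly called mm10), each on the strand of its gene. Capitals mark every stretch that matches the NF-kB consensus site, known as the κB site, in at least 9 of its 10 letters on either strand.
Nlrp3, chr11:59541319-59541568, plus strand: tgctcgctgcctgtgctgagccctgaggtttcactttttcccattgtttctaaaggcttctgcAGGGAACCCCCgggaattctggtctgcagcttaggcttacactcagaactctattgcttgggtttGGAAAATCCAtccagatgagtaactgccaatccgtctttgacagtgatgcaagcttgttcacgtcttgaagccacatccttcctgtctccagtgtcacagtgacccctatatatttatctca
Il1b, chr2:129371140-129371389, minus strand: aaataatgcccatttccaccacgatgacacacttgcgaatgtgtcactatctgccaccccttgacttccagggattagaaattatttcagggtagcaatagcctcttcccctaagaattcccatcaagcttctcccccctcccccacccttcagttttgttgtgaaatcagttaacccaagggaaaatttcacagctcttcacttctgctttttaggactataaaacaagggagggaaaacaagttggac
Ptges, chr2:30903298-30903547, minus strand: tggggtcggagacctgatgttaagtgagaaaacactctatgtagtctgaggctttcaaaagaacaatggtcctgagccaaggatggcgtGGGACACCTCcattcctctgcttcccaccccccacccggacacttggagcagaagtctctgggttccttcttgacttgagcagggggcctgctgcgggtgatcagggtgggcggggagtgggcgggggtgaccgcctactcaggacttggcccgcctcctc

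The Nlrp3 window held the only full match to the κB consensus among the 4 start sites of the 3 genes. It is the stretch GGGAACCCCC, read on the minus strand, at chr11:59541383-59541392, from 186 to 177 bp before the first start site. It lay inside the outer KO peak and upstream of the WT peak. The second capital stretch, GGAAAATCCA at chr11:59541447-59541456, matches 9 of the 10 letters on the minus strand and lay inside the WT peak and the inner KO peak. A full match occurred in 3.9% of the 32851 promoter windows of this length in the table, and a match of at least 9 letters in 39.6%. In the 149-base stretch at the place of the WT Nlrp3 peak, 26.2% of windows held a match of at least 9 letters. The window of Ptges held a match of 9 letters and that of Il1b none. The window of the second Nlrp3 start site held 1 of 9 letters. A looser form, GGG and CC on either side of any 5 bases, occurred in 45.8% of windows and in those of the first Nlrp3 start site and Ptges, where at Nlrp3 it is the full match itself. A pair of GAAA stretches with any 2 bases between them, a short form of the element that IRF factors bind, occurred in 2.98% of windows and in none of the 4. These are letter matches, searched on both strands, and no binding to them was measured.

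Peaks in promoter windows were few. Among the 2376 peaks listed for NF-kB in LPS-treated KO, 24 (1.01%) touched a window from 250 bases before to 50 after any annotated start site, and 2 of these were the Nlrp3 peaks. Of the 2494 peaks of WT with LPS, 21 (0.842%) did, and 1 of them was the Nlrp3 peak. Each Nlrp3 peak lay nearest to Nlrp3 itself among all annotated genes.

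**Figure D2:**
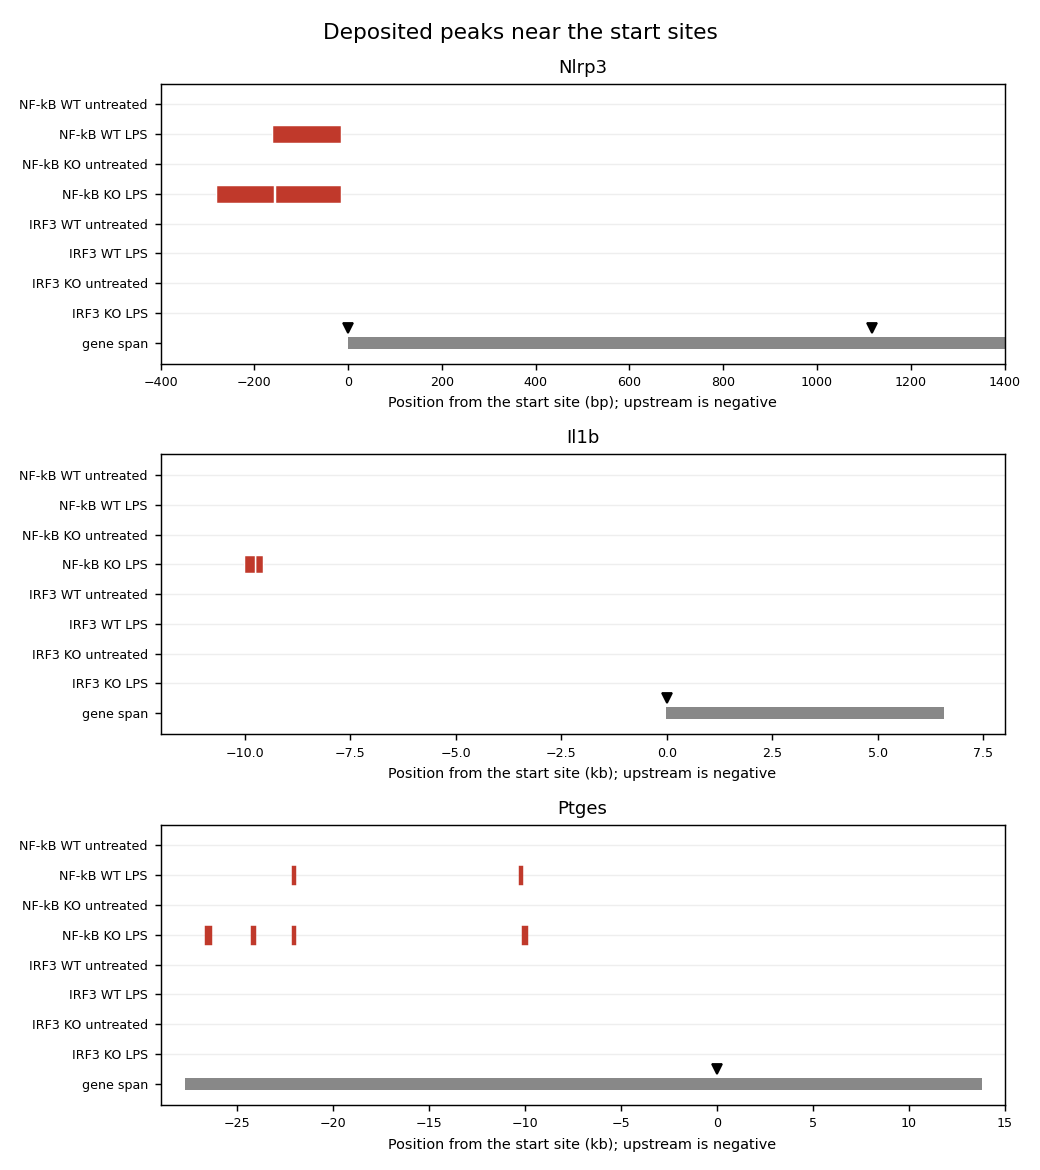
Peaks by position from the start site, for Nlrp3 in bp and for Il1b and Ptges in kb, with upstream to the left, triangles for start sites and a white line between abutting peaks (an outline makes the Ptges marks slightly wider than scale). The Nlrp3 peaks of both genotypes with LPS share their right edge 15 bp before the start site, Il1b has a pair of abutting peaks in KO alone, and Ptges has 2 peaks in WT and 4 in KO.

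At Il1b, the cytokine gene, NF-kB peaks lay upstream and in KO cells alone. The gene spans chr2:129364569-129371164 on the minus strand, with a start site at 129371139. With LPS, KO cells had 2 abutting peaks, chr2:129380709-129380910 (202 bp) and chr2:129380911-129381149 (239 bp), which together covered 441 bp. They lay 9570 to 10010 bp upstream of the start site, and Il1b was their nearest protein-coding gene. Among all annotated genes Spcs2-ps was nearer, 1313 and 1515 bp away. The nearer piece ranked 2089 of 2376 with a q-value of 0.912, and the farther piece ranked 752 with a q-value of 0.303. Both carried the same signal value of 12.5. Il1a, the neighbouring gene of interleukin-1 alpha, lay 70523 bp from the same peaks on the other side of Il1b.

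Untreated KO cells had a different peak in the window, chr2:129454177-129454787, 611 bp wide and 83013 bp from Il1b. It ranked 2651 of 3065 with a q-value of 0.893, and its nearest gene was F830045P16Rik at 3010 bp. It is the outermost of the 12 peaks. The nearest ones beyond 100 kb formed 1 position about 241 kb from Il1b, listed for IRF3 in 3 lists and for NF-kB in both KO lists, and no gene gained a peak when the distance was set to 200 kb. In WT cells the nearest NF-kB peak to Il1b was 1630939 bp away with LPS and 2060907 bp away without it.

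At Ptges, the prostaglandin gene, several narrow peaks were spread over the region upstream of the start site. The annotated span is chr2:30889471-30931020 and includes 27723 bp upstream of the start site at 30903297, on the minus strand, so peaks counted as inside the gene lay before that start site. No other start site of Ptges was used, so its promoter window and letter matches do not cover the upstream end of the span. WT cells with LPS had a peak of 177 bp at chr2:30913451-30913627 and one of 121 bp at chr2:30925305-30925425. KO cells with LPS had peaks at chr2:30913207-30913470 (264 bp), chr2:30925274-30925444 (171 bp), chr2:30927361-30927583 (223 bp) and chr2:30929659-30930003 (345 bp). The KO peaks spread over 16797 bp.

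The 2 WT positions of Ptges were matched to different degrees in KO. The WT peak farther from the start site lay wholly inside a KO peak. The nearer edges of the pair were 22008 bp upstream in WT and 21977 bp upstream in KO. The other WT peak shared 20 bp with its KO counterpart, which is 11.3% of the WT peak and 7.58% of the KO peak. The remaining KO peaks, 24064 and 26362 bp from the start site at their nearer edges, lay 1936 and 4234 bp from the nearest WT peak. The outermost KO peak, 1017 bp inside the upstream end of the span, was the best ranked of the 12, at 275 of 2376, with a q-value of 0.0698. Its signal value of 20.0 was above that of 92.3% of the peaks of its list.

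Few genes held as many peaks. In KO with LPS, 8 of 21883 genes (0.0366%) had at least 4 NF-kB peaks overlapping their span, namely Ptges, Sp110, Sp140, Sfi1, Zfp993, Zfp978, Gm6351 and Ulk4. Sp110 and Sp140 overlap each other and share peaks. In Ptges, Sp110 and Sp140 all 4 peaks were under 500 bp wide, and in Ulk4 none was. With LPS in WT, 94 genes (0.43%) had at least 2, Ptges among them. Counted within 100 kb of the span, 61 genes (0.279%) had at least 4 in KO with LPS, again with Ptges. Since Ptges was chosen by its peaks in these lists, nothing is read from these shares. The other genes were named after their values were seen.

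Within 100 kb, the treatments differed at Nlrp3 and Ptges in both genotypes. In the NF-kB lists, 2 of the 3 genes in WT had a peak within 100 kb with LPS and none without it, against 8.36% of all protein-coding genes. In KO it was also 2 of 3, against 5.11%. The third gene in KO, Il1b, had peaks with and without LPS, at the different positions given above. Its untreated peak lay 83013 bp away. Within 10 kb, within 50 kb or with lists of equal length, Il1b too had a peak with LPS alone, and the count in KO was 3 of 3. Since the genes were chosen by such peaks, nothing is read from these shares. For IRF3 no gene had a peak in either treatment.

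The genotypes differed at Il1b. With LPS, 1 of the 3 genes had an NF-kB peak in KO and none in WT, against 5.06% of all genes, and without LPS it was again 1, against 10.8%. Nlrp3 and Ptges had peaks in both genotypes with LPS. Nlrp3 had 1 in WT and 2 abutting ones in KO. With abutting peaks joined, each genotype had 1 there, of 149 bp in WT and 267 bp in KO. With lists of equal length each also had 1, of 149 bp in WT and 142 bp in KO, so neither the number nor the wider KO extent remained. Ptges had 2 peaks in WT and 4 in KO, and 1 and 4 with lists of equal length. The difference could not be tested, since each group is 1 merged list.

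The background by list shows how often a gene has a peak this near. In the NF-kB lists the shares of all protein-coding genes with a peak within 100 kb were 9.62% for WT and 18.4% for KO without LPS, and 15.5% for WT and 15.2% for KO with it. The members with such a peak numbered 0 and 1 without LPS, and 2 and 3 with it. In the IRF3 lists the shares without LPS were 6.47% for WT and 10.5% for KO, those with LPS 8.51% and 11.0%, and the members numbered 0 in each. With LPS, an NF-kB peak without an IRF3 peak was found at 2 of 3 members in WT, against 8.85% of all genes, and at 3 of 3 in KO, against 7.63%. At these shares most genes had no IRF3 peak in a list, as the 3 members did.

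Distances to the nearest peak describe the same peaks on a continuous scale. The genes were chosen by such peaks, so nothing is read from the shares of genes as near. The nearest NF-kB peak to Nlrp3 with LPS lay 15 bp from the span in both genotypes. At 15 bp or nearer stood 2.86% of all genes in WT and 2.74% in KO. Without LPS it lay 5862406 bp away in WT and 535607 bp away in KO, where the median gene was at 810 and 394 kb. Peaks overlapped the Ptges span in both LPS lists, while without LPS the nearest were 3644553 bp away in WT and 3002992 bp in KO. Both genes thus stood farther from NF-kB peaks than the median gene without LPS. Il1b stood 9545 bp from the nearest NF-kB peak in KO with LPS, and 3.91% of genes were as near.

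IRF3 peaks were remote from all 3 genes. The nearest one to Nlrp3 was 3336212 to 3336638 bp away in 3 lists and 793623 bp away in KO with LPS. The nearest to Ptges was between 2590793 and 6948377 bp away. For Il1b it was 240662 to 240837 bp away in 3 lists, nearer than the median gene, and 9890569 bp away in untreated WT.

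**Figure D3:**
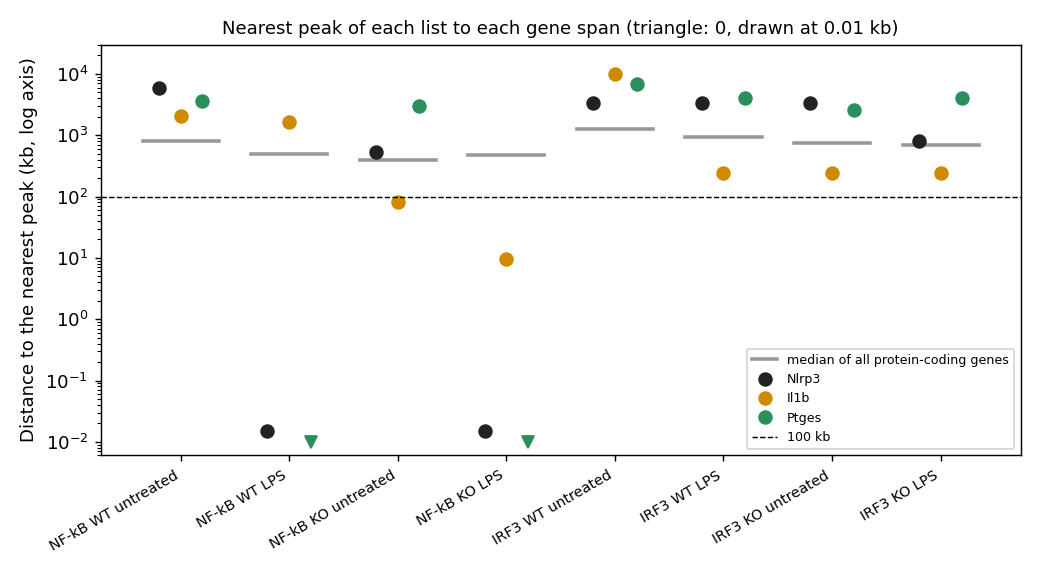
Distance in kb, on a log axis, from each gene span to the nearest peak of each list, with the median of all protein-coding genes as a grey bar and the 100 kb limit dashed. In the NF-kB lists with LPS, Nlrp3 stands at 15 bp and Ptges at 0 (triangle, drawn at 0.01 kb), and Il1b falls below the limit in the KO lists alone.

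The peaks with LPS were narrower than most of their lists. Median widths were 1035 bp in WT and 943.5 bp in KO for NF-kB with LPS, and 24.7 and 29.4% of peaks were under 500 bp. The 3 WT peaks, of 121, 149 and 177 bp, were wider than 1.04, 4.61 and 7.94% of their list. The 8 KO peaks ran from 125 bp, wider than 2.36% of the list, to 345 bp, wider than 21.4%. All 11, counted singly, thus lay in the narrow part of their lists. The KO peaks at Nlrp3 and Il1b are abutting pairs, which span 267 and 441 bp when joined. The joined Il1b stretch is wider than the lower quartile of the list, 403.75 bp. Chromatin had been sheared to 100 to 300 bp.

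Ranks within a list follow the deposited p-value. The WT Nlrp3 peak ranked 1085 of 2494 (q-value 0.352), and the inner and outer KO peaks ranked 653 and 1650 of 2376 (q-values 0.247 and 0.817). The WT Ptges peaks ranked 1028 and 2241 of 2494, with q-values of 0.315 and 0.904. In KO the Ptges peaks ranked 275, 747, 766 and 1111, so that each stood above the middle of its list. When every list was cut to its 1169 best-ranked peaks, the length of the shortest list, Nlrp3 kept 2 peaks, Ptges 5 and Il1b 1, all with LPS. Ranks from lists of different length show no change in binding.

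**Figure D4:**
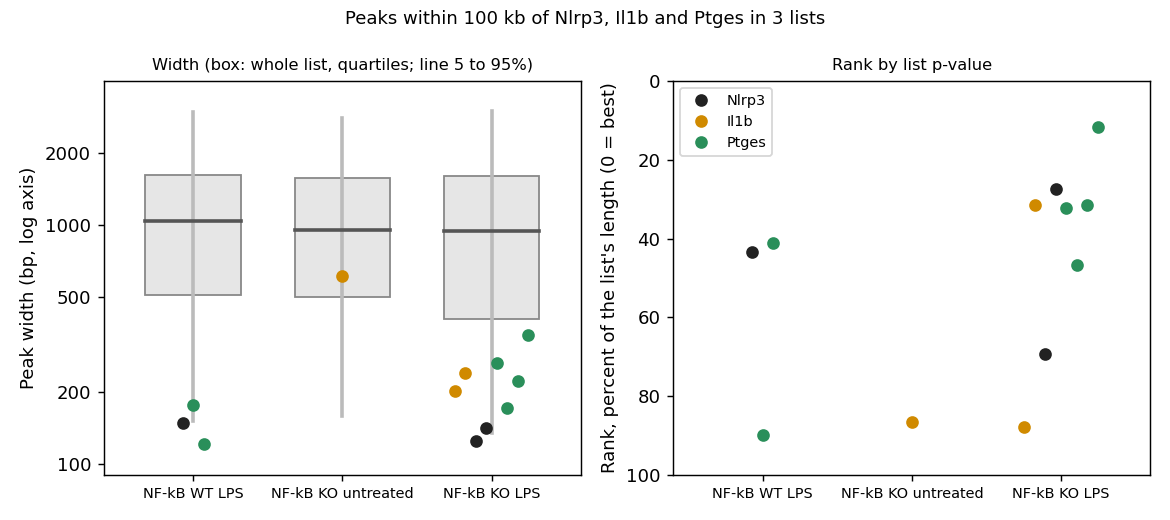
Left, width in bp on a log axis of each peak near the 3 genes (points) beside its whole list (box, quartiles with the median; line, 5 to 95%). Right, the rank of the same peaks as a percent of the list's length, 0 being best. The 11 peaks with LPS, abutting ones drawn separately, lie below the lower quartile of width, and the best rank is the outermost Ptges peak of KO at 11.6%.

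The other inflammasome and interleukin-1 genes were described from a list of 32, which includes Nlrp3 and Il1b. Within 100 kb, 7 of the 32 had an NF-kB peak in KO with LPS (21.9%, against 15.2% of all genes) and 6 in WT with LPS (18.8%, against 15.5%). Without LPS, 4 did in KO (12.5%, against 18.4%) and 2 in WT (6.25%, against 9.62%). IRF3 peaks lay near 3 of the 32 in WT without LPS (9.38%, against 6.47%) and 5 with it (15.6%, against 8.51%). In KO they lay near 3 without LPS (9.38%, against 10.5%) and 2 with it (6.25%, against 11.0%). The median distance of the 32 genes to an NF-kB peak with LPS was 343 kb in KO and 562 kb in WT, beside 483 and 493 kb for all genes. Without Nlrp3 and Il1b, 5 of 30 had an NF-kB peak within 100 kb in each genotype with LPS. Those in KO still include Il1a, counted through the same peaks as Il1b. Those in WT include Il18r1 and Il18rap, counted through the same peak. The IRF3 counts hold such pairs as well, except in KO with LPS. Il18r1 and Il18rap shared a peak in both WT lists, and Naip2 and Naip5 shared peaks in WT with LPS and untreated KO. Il1rap was counted in all 8 lists, for both factors.

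Mefv, which encodes pyrin, another inflammasome sensor, was listed in the same pair of NF-kB lists as Nlrp3 and in no other. Its peak in WT with LPS, chr16:3723249-3723437, was 189 bp wide, lay 5038 bp from the gene and ranked 2435 of 2494 (q-value 0.904). Its peak in KO with LPS, chr16:3723373-3723596, was 224 bp wide, lay 5162 bp away and ranked 331 of 2376 with a q-value of 0.0921. Mefv was the nearest protein-coding gene to both. Nek7, a kinase that binds the NLRP3 protein, had wide peaks of 990 to 1617 bp inside the gene for NF-kB in untreated WT and KO with LPS and for IRF3 in KO with LPS. Il18rap, a subunit of the interleukin-18 receptor, had peaks of 1403 to 1736 bp 1229 to 1464 bp away, in WT alone, for NF-kB with LPS and for IRF3 with and without it. Naip2, a sensor of bacterial secretion proteins, had IRF3 peaks inside the gene in WT with LPS and in untreated KO. Panx1, a membrane channel, had NF-kB peaks in KO alone, 18773 bp away with LPS and 89493 bp away without it, and so was listed in the same pair of lists as Il1b. Among these genes only Mefv shared with Nlrp3 both the pair of lists and a width under 500 bp. The WT Mefv peak ranks below the best 1169, so with lists of equal length Mefv keeps only its peak in KO with LPS.

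The list of prostaglandin and leukotriene genes held 27, Ptges among them. Of these, 4 had an NF-kB peak within 100 kb in KO with LPS (14.8%, against 15.2% of all genes) and 7 in WT with it (25.9%, against 15.5%). Without LPS, 7 did in KO (25.9%, against 18.4%) and 3 in WT (11.1%, against 9.62%). Leaving out Ptges, with LPS 3 of 26 did in KO and 6 in WT. IRF3 peaks lay near 3 of the 27 in WT without LPS (11.1%, against 6.47%) and 4 with it (14.8%, against 8.51%). In KO they lay near 2 without LPS (7.41%, against 10.5%) and 2 with it (7.41%, against 11.0%). Hpgd was counted in all 8 lists, for both factors, with the nearest peak 34146 to 34513 bp away. The median distance to an NF-kB peak with LPS was 305 kb in KO and 319 kb in WT. Within 10 kb, Ptges was joined in WT with LPS by Abcc4, a transporter that exports prostaglandins, with a peak of 387 bp inside the gene and a q-value of 0.896. In KO with LPS it was joined by Ptges2, a further prostaglandin E synthase, 7836 bp from a peak of 347 bp. That peak overlaps Lcn2, which encodes the iron-binding protein lipocalin 2. Lcn2 is among the genes with a peak in their promoter window in this list. The receptor genes Ptgdr2 and Ptger3 had peaks no nearer than 12068 and 14025 bp.

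Presence in the NF-kB lists of both genotypes with LPS and in no other of the 8 lists was shared by Nlrp3, Ptges and others, 244 protein-coding genes in all (1.12%). Of these, 25 had a peak overlapping the span in both lists, Ptges among them, and so tied at 0 bp. The first of the others in alphabetical order were Batf, a transcription factor, Bcl3, an atypical member of the family of NF-kB inhibitors, Borcs5, Cert1 and Cul5. The pattern of Il1b, NF-kB in both KO lists alone, was shared by 134 genes (0.612%), Il1b included. Il1b has this pattern only through the untreated KO peak 83013 bp away, and within 10 kb or 50 kb it had a peak in 1 list. A peak overlapped the span in both lists for 20 of the 134, of which Abcc10, Acyp2, Ahnak, Arsb and Cdk6 stand first in the alphabet. Likeness here is presence or absence over 8 lists and says nothing of level.

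Joining overlapping peaks of all lists gave 5605 regions, and 101 of them (1.8%) held NF-kB peaks of both genotypes with LPS and no others. Their median width was 446 bp, and 53 (52.5%) were under 500 bp. The 3 genes held 3 of the 101, 1 at Nlrp3 and 2 at Ptges. The Ptges region nearer the start site rests on a shared stretch of 20 bp. A stricter rule, which asked for a larger shared part, gave 95 such regions (1.66%), and the peaks at that Ptges position separated. Of the 444 regions found only for NF-kB in KO with LPS, 4 lay near the members, 2 at Il1b and 2 at Ptges. Those at Il1b are the abutting pair, which formed 1 region of 441 bp when abutting peaks were joined.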

How the data were processed

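NF-kB and IRF3 ChIP-seq of macrophages gave 8 deposited peak lists, 1 for each combination of factor, genotype and treatment, each merging 2 or 3 samples. Of 44 samples, the 22 of these ChIP groups enter the lists, and methylation, accessibility and input samples were not analysed here. Per the submitters' processing notes, the build was mm10 and the tools included MACS2 2.1.1 and HOMER 4.9, with no roles given. Each list holds a deposited score, a signal value used here as a score with no stated normalization, and p-values and q-values by the authors. The merging step, and what those p-values measure, were not stated in any source used here. Depth is unknown, and merging leaves no replicate spread, so no test was made between lists. Distances ran from a peak to the nearest edge of a RefSeq gene span (GRCm38.p6), with Python 3.11.15, pandas 2.3.3 and NumPy 2.4.6. The distance step was tested on simulated data, where 200 of 200 planted distances and 300 of 300 planted regions were recovered. Overlap meant at least 1 shared bp. The text names the 3 genes, the nearest coding gene of each peak, up to 12 pathway genes by distance, and up to 5 genes with the same presence by distance, ties in alphabetical order. Further pathway genes are named where they share a peak with another or were counted in all 8 lists. The genes and lists were chosen with earlier results of these data known. Alternatives were other distances, a q-value limit, equal list lengths, narrow peaks alone and other joining rules.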

Additional observations from a re-analysis of the deposited data

How the results depend on the processing

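Most counts kept their value to within 1.5 times, a rule that also passes 2 against 3, among them all 42 recomputed within 200 kb. Many of these counts were 0 at the outset, and a 0 cannot fall under a stricter setting. With a q-value under 0.05, the 23 counts that kept their value were all 0, and the other 19 moved. With a q-value under 0.05 the peaks and lists of each of the 3 genes fell to 0, as did the members with a peak with LPS alone, in KO alone and for NF-kB alone. With lists of equal length Il1b had 1 peak. It had a peak in 1 list within 10 kb, within 50 kb, with equal list lengths and with peaks under 500 bp alone. For untreated cells, the members with a peak in KO alone, and with NF-kB alone in KO, numbered 0 within 10 kb, within 50 kb and with equal list lengths. Pathway genes with a peak numbered 9 in any list and 6 for NF-kB in KO with LPS within 10 kb, against 25 and 11 within 100 kb. The share of all genes fell too, from 29.7% within 100 kb to 8.1% within 10 kb for any list. For NF-kB in KO with LPS it fell from 15.2 to 3.97%. Joining abutting peaks of a list, chosen after seeing the data, left 1 peak each at Nlrp3 and Il1b in KO with LPS. No paired analysis was possible because each list merges the replicates of its group, and for the same reason leaving out a replicate could give no value. Depth is unknown, so a missing peak does not show that a site was unbound.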

Other observations

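Promoter windows with a peak in both NF-kB lists with LPS belonged to 16 of the 27025 genes with a window, and 9 of these had none in either untreated NF-kB list. They were Nlrp3, Irak3, Tnfaip3, Znrf1, Lrmda, Gm14321, Gm16174, Gm32287 and Gm38500. Irak3 and Tnfaip3 encode inhibitors of the signalling that activates NF-kB. A peak lay in the promoter window of 11 genes for NF-kB in KO with LPS and not in WT with LPS. They were B2m, Birc3, Commd1, Lcn2, Nfkbia, Sp110, Zrsr1, Gm33862, Gm36634, Gm36913 and LOC115488002. The reverse held for 7 genes, A530032D15Rik, Usp17lc, Gm21698, Gm38704, Gm41113, Gm51701 and Gm52195. These genes were named after their values were seen, and the difference between genotypes was not tested.

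Abutting pairs of peaks, as at Nlrp3 and Il1b, occurred in all 8 lists, from 30 pairs for IRF3 in untreated WT to 155 for NF-kB in KO with LPS. In every pair both peaks carried the same signal value. Peaks in such pairs made up 13.0% of the NF-kB list of KO with LPS and 7.62% of that of WT with LPS.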
